A study of Mus musculus with 7 samples.

Results

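The genes described here carry the vitamin D dependent route of calcium through an epithelial cell: the receptor gene Vdr, the apical calcium channel gene Trpv6, the calcium shuttle gene S100g, the calcium pump gene Atp2b1 and the hormone-degrading enzyme gene Cyp24a1. They are 5 genes named by symbol, set against 18036 genes listed in at least 1 library. S100g and Trpv6 were picked because their RNA was low after DSS and came back earlier in the PhIP/DSS libraries. Their differences are therefore given as descriptions with no test. Of the 5 genes, 4 were listed and the same 4 passed the filter on low values (at least 1 RPKM, a read level scaled for gene length and library depth, in at least 2 libraries), which 12061 genes passed. Cyp24a1 was listed in no library.

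All mice were female hCYP1A animals on C57BL/6, in which human CYP1A genes stand in for those of the mouse, and all were 6 weeks old. The control mice received neither agent. DSS, dextran sulfate sodium, causes colitis and was given at 1.5% for 5 days. PhIP/DSS mice first received PhIP, a carcinogen that forms in meat during cooking, as 2 doses of 100 mg/kg given 4 days apart, and DSS a week later. Colon epithelium was scraped off 1, 3 or 7 days after DSS ended, and RNA from 3 mice was pooled into each of 7 libraries, 1 per condition. The labels call the control normal, days 1 and 3 colitis and day 7 partial colitis. With 1 library per condition, no difference between 2 libraries has a replicate check.

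In the absorbing epithelial cell, calcium enters at the apical membrane through TRPV6, is carried across the cytoplasm by calbindin, the product of S100g, and leaves at the basal side through the plasma membrane pump encoded by Atp2b1. The vitamin D receptor is a nuclear receptor that binds the hormone calcitriol, pairs with a retinoid X receptor and acts on DNA at direct repeats of a short hexamer separated by 3 bases. Trpv6, S100g and Cyp24a1 are textbook targets of this receptor, and CYP24A1 breaks down calcitriol. In bulk RNA, fewer cells that express a gene and less of its RNA per cell cannot be told apart.

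The 250 bases before the start of S100g and Trpv6 are shown because these genes had the widest spread between libraries of the 4 that were listed. Both come from the RefSeq promoter table of GRCm38.p6, read 5′ to 3′ on the gene's strand, the minus strand for both, with S100g at chrX:162964600-162964849 and Trpv6 at chr6:41636406-41636655. Capitals mark any of 4 receptor hexamers, searched on both strands. The hexamers searched were the common form AGGTCA, the variant form GGGTCA, another form written AGTTCA and a last form written GGTTCA.
S100g: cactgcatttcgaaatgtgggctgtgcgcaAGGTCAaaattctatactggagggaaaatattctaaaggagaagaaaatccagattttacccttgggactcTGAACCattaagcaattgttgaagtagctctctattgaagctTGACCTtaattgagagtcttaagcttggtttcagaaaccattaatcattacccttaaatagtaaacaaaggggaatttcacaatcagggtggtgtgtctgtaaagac
Trpv6: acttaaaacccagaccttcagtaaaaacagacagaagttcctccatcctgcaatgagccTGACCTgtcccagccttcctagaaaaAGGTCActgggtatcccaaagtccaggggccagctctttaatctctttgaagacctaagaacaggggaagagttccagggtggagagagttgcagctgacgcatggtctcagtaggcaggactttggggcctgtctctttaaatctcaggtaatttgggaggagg
S100g held AGGTCA at -220 to -215 and, on the other strand, at -107 to -102, with GGTTCA on the other strand at -149 to -144, counted back from the base before the start as -1. Trpv6 held AGGTCA on the other strand at -191 to -186 and on its own at -165 to -160. Neither window held 2 hexamers as a direct repeat with 3 bases between. Among 32851 mouse promoter windows of the same length, 14% held AGGTCA, 38.6% held any of the 4 hexamers and 0.0396% held such a repeat, so the hexamers alone are common. The window of Vdr held a single AGTTCA, on the other strand at -91 to -86, and the pair of windows of Atp2b1 held none. GC content was 38.4% for S100g, 49.6% for Trpv6, 61.2% for Vdr, and 78.4% and 80.8% for Atp2b1, against a median of 52.4% over all windows.

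Depth was similar, with 1 RPKM over a gene of 1 kilobase standing for 7.66 reads in the control and 8.26 to 8.78 reads in the treated libraries, and 15849 to 16134 genes had at least 1 read. Epithelial markers were abundant throughout: 9 of 9 markers of epithelium at all crypt positions were listed, with a summed level from 8977 to 10790 RPKM, and 9 of 10 surface colonocyte markers, with a summed level from 14710 to 22440 RPKM. Lypd8 made up most of that sum, at 9596 to 19360 RPKM. Slc26a3, the chloride-bicarbonate exchanger of surface cells, was at 470 RPKM (469.8) in the control and 110.0 to 175 RPKM after treatment. The carbonic anhydrase gene Car4 was at 1326 and 402 to 684 RPKM. Both were thus lower in every treated library, as S100g was. Aqp8, Guca2a and Cdhr5 came close to the control in some treated libraries. Aqp8 was at 286.9 RPKM in the control and 118.9 to 281.3 RPKM after treatment, Guca2a at 1310 and 375.8 to 1199 RPKM, and Cdhr5 at 683 and 435.2 to 681.2 RPKM. Krt20 went the other way, at 447.7 RPKM in the control and 706.3 to 1008 RPKM after treatment. Lypd8, Car1 and Slc9a3 were above the control in some treated libraries and below it in others. The part of surface cells in the S100g values was not tested. Neutrophil markers, all 7 listed, summed to 2.92 RPKM in the control, 34.2, 1136 and 453 RPKM on DSS days 1, 3 and 7, and 786, 31.1 and 65.9 RPKM in PhIP/DSS. Retnlg and Mmp8 were at 0 in the control. Fibroblast markers, 6 of 6, ranged from 6.66 RPKM in the control to 152 RPKM in the PhIP/DSS day 1 library. That library also stood apart in its fat markers, which summed to 130 RPKM (129.7) against 2.47 to 16.8 RPKM elsewhere.

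**Figure D1:**
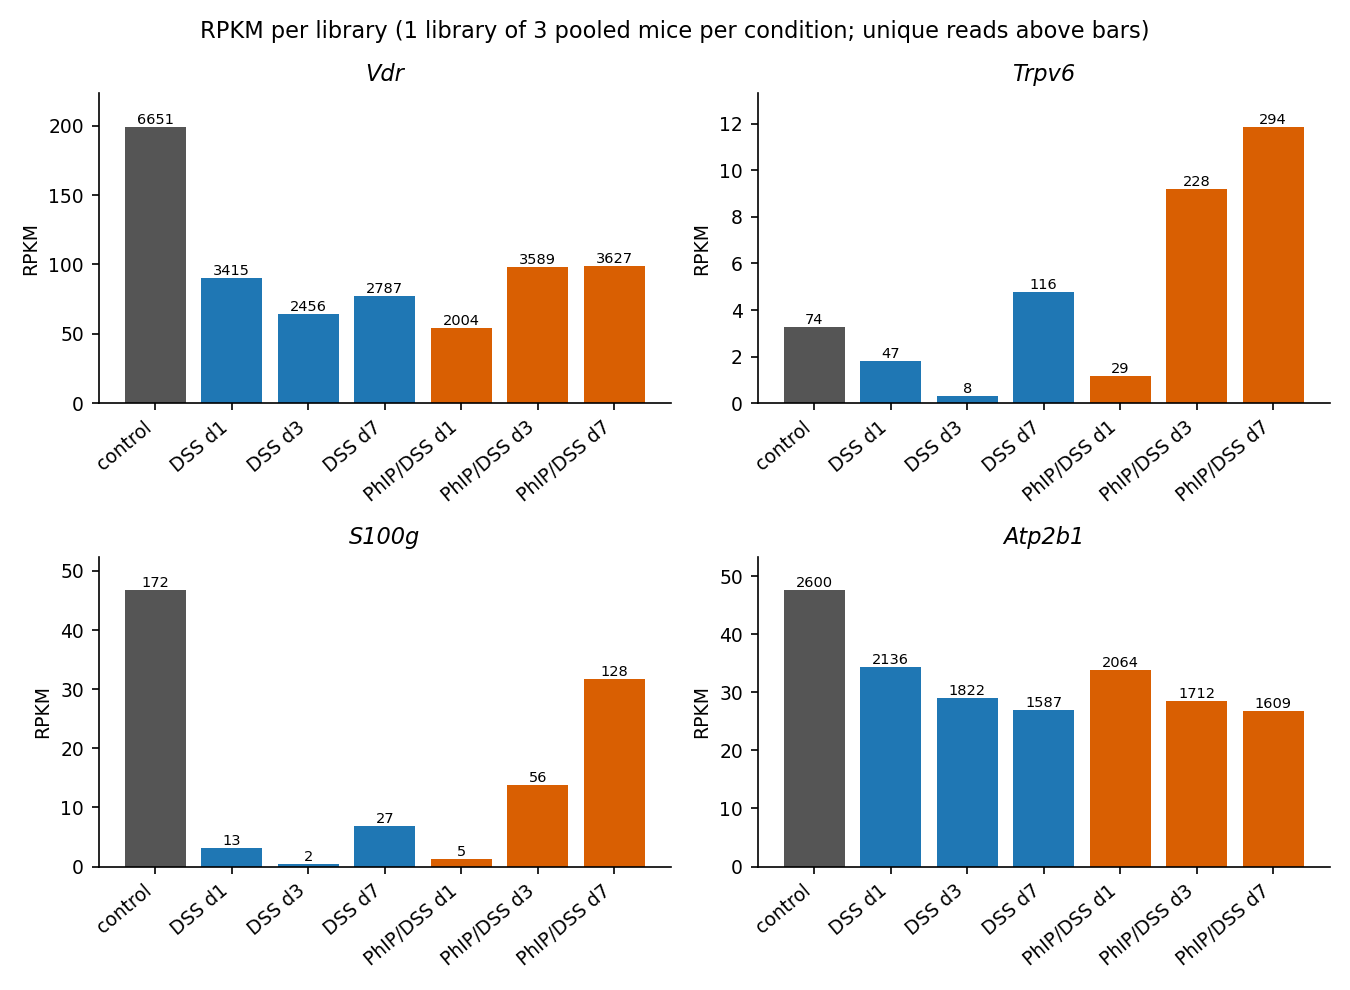
RPKM (vertical axis) of Vdr, Trpv6, S100g and Atp2b1 in the 7 libraries (horizontal axis, d1 to d7 being days after DSS), with the number of unique reads above each bar and no error bar, since each bar is 1 library. Vdr and Atp2b1 are highest in the control, Trpv6 is highest in the PhIP/DSS day 7 library at 11.9 RPKM, and S100g is lowest in the DSS day 3 library at 0.475 RPKM.

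Vdr (gene 22337, chr15:97854427-97908296, minus strand, GRCm38.p6), the receptor, was the most abundant of the members at 199 RPKM in the control. Its level was 89.8, 64.2 and 77.5 RPKM on DSS days 1, 3 and 7 and 53.9, 97.9 and 99.2 RPKM on the same days of PhIP/DSS. In depth-scaled reads all 6 treated libraries stood at least 2-fold below the control, from 2.01-fold lower (95% counting interval 1.93 to 2.09) on PhIP/DSS day 7 to 3.70-fold lower (3.52 to 3.89) on PhIP/DSS day 1. With the TMM scaling of edgeR the PhIP/DSS day 7 ratio was 0.5016, just short of 2-fold lower. Of all genes tested, 1.24% were at least 2-fold lower in all 6. Counting intervals are exact, come from the 2004 to 6651 Vdr reads per library, and cover counting error only.

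The order of Vdr levels put PhIP/DSS day 1 last and DSS day 3 next to last. PhIP/DSS days 3 and 7 were the only neighbours in that order whose ratio, 1.01 (0.967 to 1.06), had an interval that held 1. PhIP/DSS was below DSS on day 1 (ratio 0.600, 0.568 to 0.634) and above it on day 3 (1.52, 1.45 to 1.60) and day 7 (1.28, 1.22 to 1.34). Over the 3 days, the fitted difference between arms was 0.06 on the log2 scale (SE 0.28, edgeR adjusted p = 0.998). The fit takes the arm difference as equal on all days, so it could not show a difference that changed direction between days.

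In the edgeR quasi-likelihood fit over all 7 libraries, in which the difference between the arms is assumed equal on all days, 0% of the 12061 genes passed an adjusted p of 0.05 in any of the 5 comparisons. The comparisons set each day beside the control, day 7 beside day 1, and PhIP/DSS beside DSS. At an unadjusted p under 0.05 there were 3932, 2291, 2076, 3172 and 442 genes in that order, and DESeq2 called 1258, 432, 482, 703 and 18. The same control library enters the first 3 comparisons. The fitted log2 difference of Vdr was -1.47 (SE 0.40, edgeR adjusted p = 0.0926) on day 1, -1.28 (SE 0.40, adjusted p = 0.214) on day 3 and -1.15 (SE 0.40, adjusted p = 0.263) on day 7, and it passed on none. It passed on all 3 days when either day 1 library was left out. The day 1 value was -2.13 (edgeR adjusted p = 9.1e-05) without DSS day 1 and -0.93 (edgeR adjusted p = 0.0084) without PhIP/DSS day 1.

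Cyp24a1 (gene 13081, chr2:170482957-170497145), the calcitriol-degrading enzyme and a strong receptor target in other tissues, was listed in none of the 7 libraries and was entered as 0 reads. The annotation used for counting is not named, so a gene without reads cannot be told from a gene that was not counted. If it was counted, 0 reads would allow up to 3 reads per library. Its gene overlaps Pfdn4 on the opposite strand, which had 25 to 65 reads. Whether the counting used strand is not stated in any source used. No Cyp24a1 level can therefore be given for the control or after treatment.

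Trpv6 (gene 64177, chr6:41620619-41636405, minus strand, 2946 bases of transcript), the apical calcium channel, was scarce in the control at 3.28 RPKM from 74 reads. After DSS it stood at 1.83 RPKM on day 1, 0.309 RPKM on day 3 and 4.77 RPKM on day 7. After PhIP/DSS it stood at 1.15, 9.19 and 11.9 RPKM. Reads covered 60.1% of the gene's length in the control, 13.3% in the DSS day 3 library and 94.2% in the PhIP/DSS day 7 library, so the high values were spread along the transcript.

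On day 1 both arms were below the control, at a ratio of 0.558 (0.378 to 0.815) for DSS and 0.352 (0.221 to 0.547) for PhIP/DSS. The arms lay on opposite sides of the control on day 3, DSS at 10.6-fold lower (5.11 to 25.5) on 8 reads and PhIP/DSS at 2.80-fold higher (2.15 to 3.70) on 228 reads. By day 7 both were above it, at 1.46 (1.08 to 1.98) for DSS and 3.62 (2.80 to 4.74) for PhIP/DSS. Set directly against DSS, PhIP/DSS had a ratio of 0.631 (0.383 to 1.02) on day 1, 29.7 (14.8 to 69.7) on day 3 and 2.49 (2.00 to 3.12) on day 7. Within PhIP/DSS, the day 3 library was 7.97-fold (5.40 to 12.2) above day 1, and within DSS the day 7 library was 15.4-fold (7.57 to 36.6) above day 3. In the order of levels, DSS day 1 and PhIP/DSS day 1 were the only neighbours with an interval that held 1.

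S100g (gene 12309, chrX:162961992-162964599, minus strand, 480 bases of transcript), the cytoplasmic calcium shuttle, was at 46.8 RPKM in the control from 172 reads. DSS libraries held 3.10, 0.475 and 6.81 RPKM on days 1, 3 and 7, from 13, 2 and 27 reads. PhIP/DSS libraries held 1.22, 13.9 and 31.7 RPKM, from 5, 56 and 128 reads. No treated library reached the control, and the nearest was PhIP/DSS day 7.

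S100g was 15.1-fold lower than the control (8.58 to 28.9) on DSS day 1 and 6.86-fold lower (4.56 to 10.7) on DSS day 7. With 2 reads on DSS day 3, the ratio to the control was 0.0102 (0.00122 to 0.0372). PhIP/DSS stood 38.3-fold lower (16.1 to 119.5) on day 1, 3.38-fold lower (2.48 to 4.65) on day 3 and 1.47-fold lower (1.17 to 1.87) on day 7. Against DSS on the same day, PhIP/DSS was at 0.393 (0.110 to 1.18) on day 1, 29.2 (7.71 to 247) on day 3 and 4.66 (3.06 to 7.34) on day 7. The 3 lowest libraries, DSS day 1, PhIP/DSS day 1 and DSS day 3, could not be ordered between neighbours from their counts.

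S100g lies inside Ctps2, a gene of the opposite strand, and no annotated Ctps2 exon overlaps it (0 in GENCODE). Ctps2, a cytidine triphosphate synthase gene, ranged only from 2.91 to 5.00 RPKM. Trpv6 ends 109 bases from the end of Ephb6, a kinase-dead Eph receptor gene that runs toward it on the other strand. Ephb6 was at 5.76 RPKM in the control, 3.05, 1.27 and 6.86 RPKM in DSS and 1.25, 7.32 and 10 RPKM in PhIP/DSS. Its levels followed the order of Trpv6 except among the lowest libraries. Whether reads run past the end of one gene into the other was not tested.

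**Figure D2:**
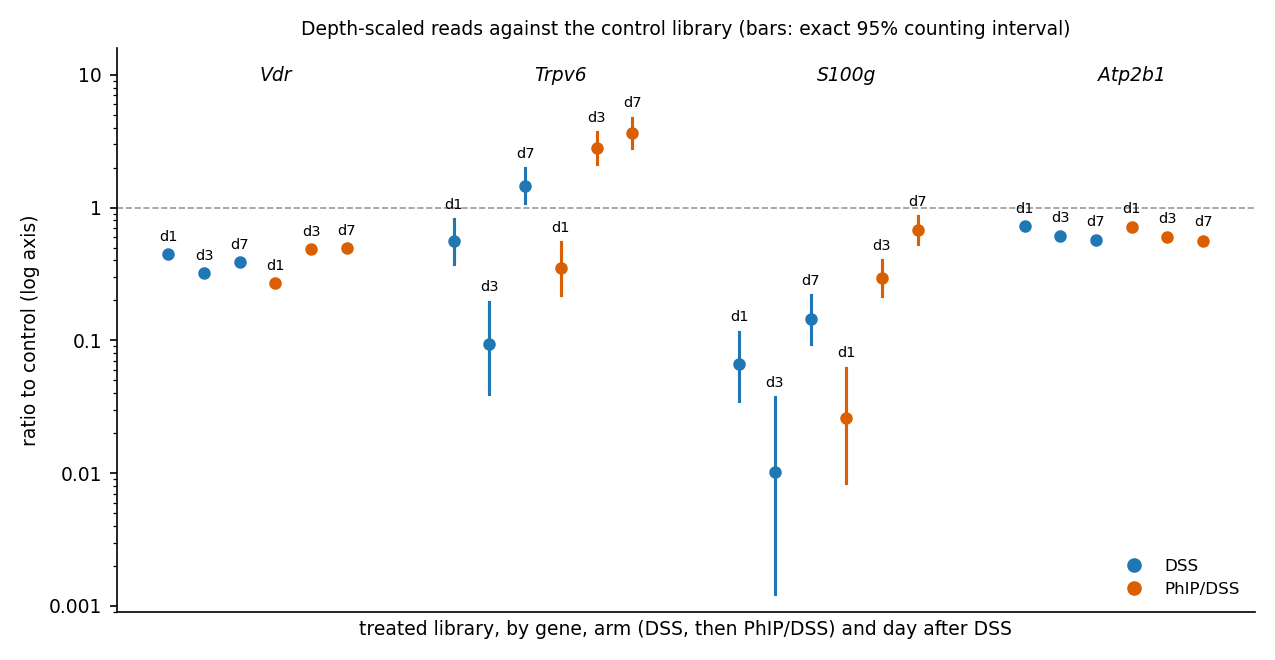
Ratio of depth-scaled reads of each treated library to the control (vertical axis, log scale) for Vdr, Trpv6, S100g and Atp2b1, with DSS in blue, PhIP/DSS in orange, days as d1, d3 and d7, and bars for exact 95% counting intervals. Trpv6 on day 3 is at 0.0943 in DSS and 2.80 in PhIP/DSS, while the 6 ratios of Atp2b1 lie between 0.565 and 0.721.

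Atp2b1 (gene 67972, chr10:98914630-99026143, plus strand), the pump that moves calcium out of the cell, was at 47.6 RPKM in the control. Its level was 34.3, 29.1 and 27.0 RPKM in DSS and 33.9, 28.5 and 26.9 RPKM in PhIP/DSS on days 1, 3 and 7. All treated libraries were below the control, and lower on day 7 than on day 1 in both arms. The fitted log2 difference from the control was -0.49 (SE 0.10, edgeR adjusted p = 0.0713) on day 1, -0.70 (SE 0.10, adjusted p = 0.132) on day 3 and -0.80 (SE 0.10, adjusted p = 0.0912) on day 7. It passed in none of these by edgeR. DESeq2 called it on each day (adjusted p = 0.0282, 0.0011 and 8.38e-05).

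The arms had nearly the same Atp2b1 level on each day, with PhIP/DSS to DSS ratios of 0.988 (0.930 to 1.05), 0.980 (0.916 to 1.05) and 0.996 (0.929 to 1.07). The fitted arm difference was -0.03 (SE 0.07, edgeR adjusted p = 0.998). Between days 1 and 7 the fitted difference was -0.31 (SE 0.08, edgeR adjusted p = 0.115). In the same libraries S100g and Trpv6 differed between arms by 29.2-fold and 29.7-fold on day 3.

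Read together, the number of members at least 2-fold lower than the control was 2, 3 and 2 of 4 on DSS days 1, 3 and 7, and 3, 2 and 1 of 4 in PhIP/DSS. Among all genes tested, 5.88%, 6.15% and 4.96% were that much lower in DSS and 9.53%, 4.05% and 3.65% in PhIP/DSS. S100g and Trpv6 were chosen on these contrasts, so the counts are not read against those shares. The member counted on PhIP/DSS day 7 was Vdr, at a ratio of 0.4975, or 0.5016 with TMM-scaled reads. Between the arms, S100g was the member at least 2-fold lower in PhIP/DSS on day 1, beside 1.83% of genes. S100g and Trpv6 were at least 2-fold higher on day 3, beside 1.9% of genes, and on day 7, beside 1.82%. Both genes were picked for their earlier return in PhIP/DSS, so these values are not read against the shares either. Over the 7 libraries, the correlation of log2(RPKM + 1) was 0.856 for Vdr with S100g, 0.798 for Trpv6 with S100g, 0.426 for Vdr with Trpv6 and -0.297 for Trpv6 with Atp2b1. The points share the same libraries, and 7 are few.

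The other genes of the pathway were taken as lists, 67 genes in all, of which 62 were listed and 45 tested, and edgeR called 0 in each of the 5 comparisons. Their median log2 ratio to the control lay between -0.10 and -0.02 in the 6 libraries, against -0.06 to 0.02 over all genes tested. At least 2-fold lower in all 6 libraries were 4 of the 45, Slc20a1, Slc34a2, Trpm6 and Abcb1a, and at least 2-fold higher in all 6 were 2, Dab2 and Thbd, beside 1.24% and 3.07% of all genes.

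Receptor partners and coregulators, 10 of 11 tested, had medians from -0.54 to -0.18. No gene was at least 2-fold from the control except 2 that were lower on PhIP/DSS day 1, beside 9.53% of all genes tested. Rxra, the retinoid X receptor that pairs with the vitamin D receptor, was at 32.1 RPKM in the control and 21.3 to 30.7 RPKM after treatment. The corepressor gene Ncor1, with the highest mean level of that list, was at 42.6 RPKM in the control and 33.1 to 40.7 RPKM after treatment. Rxrb, another retinoid X receptor gene, was at 17.7 to 20.5 RPKM over the 7 libraries, while Rxrg had at most 2 reads in a library and 0 in the day 3 libraries.

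Of the genes for vitamin D synthesis, activation, binding and uptake, 3 of 10 were tested: Dhcr7, Cyp27a1 and Dab2. Cyp27a1 was at 17.7 RPKM in the control, 5.21, 13.4 and 12.7 RPKM in DSS and 2.17, 6.41 and 19.15 RPKM in PhIP/DSS. Dhcr7 was at 61.6 RPKM in the control and 50.5 to 67.05 RPKM after treatment. Cyp27b1, which makes calcitriol, had 1 to 3 reads per library. Gc, the carrier in plasma, and Lrp2 were listed in no library. Dab2, an endocytic adaptor that macrophages also express, was at 0.346 RPKM in the control and between 0.867 and 5.18 RPKM after treatment, highest on PhIP/DSS day 1. Its fitted log2 difference on day 1 was 3.21 (SE 1.54, edgeR adjusted p = 0.219). Macrophage markers, 8 of 8 listed, summed to 36.0 RPKM (35.95) in the control and 77.2 to 330.1 RPKM after treatment, also highest on PhIP/DSS day 1. Their part in the Dab2 values was not tested.

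Calcium entry genes other than Trpv6 gave medians from 0.22 to 0.43 (6 of 9 tested). Trpv5, the sister channel of the kidney, had 2 reads in 1 library and none in the others. S100a10 and Anxa2, whose products form a complex that brings TRPV channels to the membrane, were both higher in every treated library than in the control. Anxa2 was at 387 RPKM in the control, 881, 895 and 945 RPKM (944.5) in DSS and 1295, 790 RPKM (789.5) and 755 RPKM (754.6) in PhIP/DSS. The fitted log2 difference of Anxa2 on day 1 was 1.48 (SE 0.32, edgeR adjusted p = 0.0741). DESeq2 called Anxa2 on all 3 days (adjusted p = 7.77e-06, 0.00227 and 0.00137).

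Calcium-binding genes other than S100g had medians from 0.37 to 0.47 (4 of 7 tested), above the control in all treated libraries. Calr, an endoplasmic reticulum calcium buffer and chaperone, was at 353 RPKM in the control and 554 to 777 RPKM after treatment, with a fitted day 1 difference of 1.13 (SE 0.15, edgeR adjusted p = 0.0710). DESeq2 called Calr on all 3 days (adjusted p = 2.54e-11, 6.47e-07 and 0.000312). Calb1, the larger calbindin, was listed in no library. The low S100g values were thus not shared by the other listed calcium-binding genes that were tested.

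Among the calcium exit and store pumps, 6 of 10 were tested and medians lay between 0.00 and 0.25. Atp2a3, the most abundant, is a pump of the endoplasmic reticulum and was at 357 RPKM in the control and 245 to 372 RPKM after treatment. Of the other plasma membrane pumps, Atp2b2 and Atp2b3 had at most 4 reads in a library, and Atp2b4 was between 0.236 and 2.03 RPKM. Atp2b1 was thus the plasma membrane calcium pump gene with the highest level per length in all 7 libraries. The 3 paracellular claudin genes, Cldn2, Cldn12 and Cldn15, had no member 2-fold from the control. Cldn2, a pore-forming claudin, was at 74.5 RPKM in the control, 44.5 RPKM on DSS day 7 and 53.5 RPKM on PhIP/DSS day 7, with a fitted day 7 difference of -0.58 (SE 0.17, edgeR adjusted p = 0.229).

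Phosphate, magnesium and zinc transporters had medians from -0.64 to -0.28 over the 8 of 11 tested. Slc20a1, a sodium-phosphate cotransporter, was at 308 RPKM in the control, 48.5, 54.9 and 42.2 RPKM (42.15) in DSS and 27.5, 51.4 and 60.7 RPKM in PhIP/DSS. It thus stood 5.08-fold to 11.2-fold below the single control library. The fitted log2 difference was -3.04 (SE 0.37, edgeR adjusted p = 0.0710) on day 1, -2.51 (SE 0.37, adjusted p = 0.133) on day 3 and -2.55 (SE 0.37, adjusted p = 0.108) on day 7, and DESeq2 called all 3.

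Slc34a2, another sodium-phosphate cotransporter, was at 46.3 RPKM in the control, 12.6, 7.78 and 12.4 RPKM in DSS and 6.38, 18.4 and 21.8 RPKM in PhIP/DSS. Trpm6, the epithelial magnesium channel, was at 40.4 RPKM in the control, 14.1, 4.84 and 7.58 RPKM in DSS and 5.82, 10.98 and 11.5 RPKM in PhIP/DSS. In both genes PhIP/DSS was lower than DSS on day 1 and higher on days 3 and 7, as it was for Vdr, S100g and Trpv6, although the day 1 intervals of S100g and Trpv6 held 1, while Slc20a1 was level on day 3 (ratio 0.937, 0.872 to 1.01). Slc30a10, a manganese exporter gene that responds to vitamin D, had 50 reads in the control and 1 to 10 reads in the treated libraries, too few to pass the filter. Its ratio to the control was 0.0176 (0.000436 to 0.102) on 1 read on DSS day 1, and 0.0873 to 0.182 in the others.

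**Figure D3:**
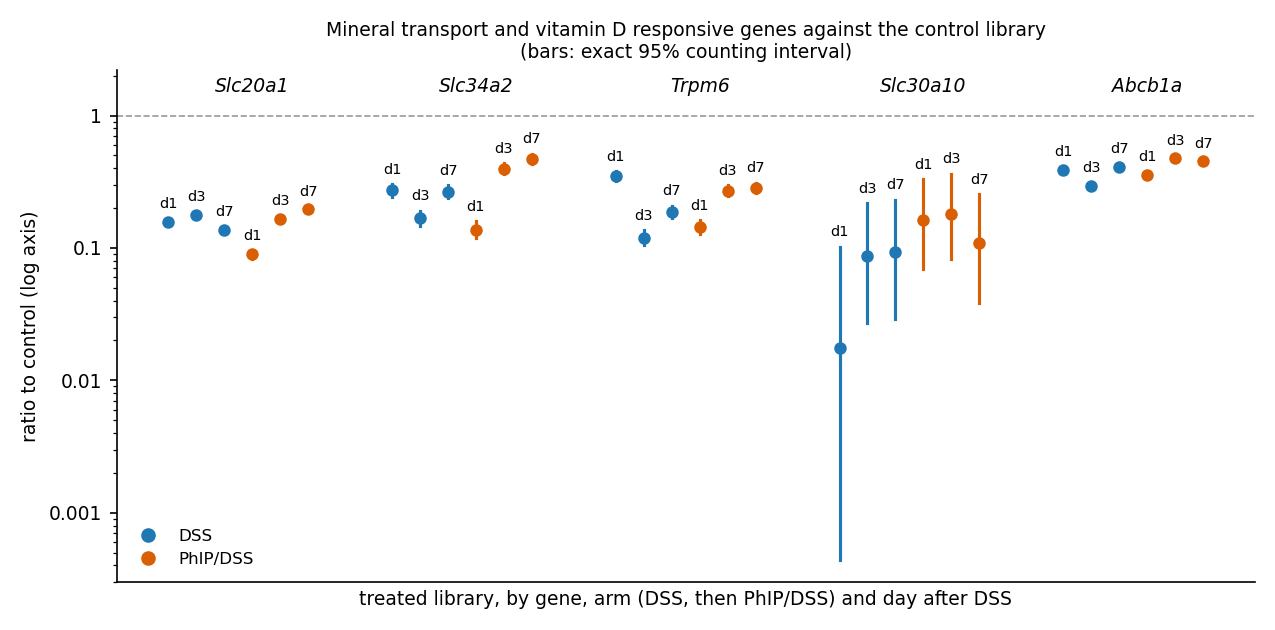
Ratio of depth-scaled reads to the control (vertical axis, log scale) for Slc20a1, Slc34a2, Trpm6, Slc30a10 and Abcb1a in the 6 treated libraries, with bars for exact 95% counting intervals, DSS in blue and PhIP/DSS in orange. All points lie below 1, and the wide bars of Slc30a10 rest on 1 to 10 reads.

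Of other genes known to respond to vitamin D, 7 of 9 were tested and 0 passed by edgeR with all 7 libraries. Abcb1a, a drug efflux pump of the apical membrane, was at 101 RPKM in the control, 39.4, 29.8 and 41.5 RPKM in DSS and 36.2 RPKM (36.15), 48.1 and 45.7 RPKM in PhIP/DSS, with a fitted day 1 difference of -1.42 (SE 0.24, edgeR adjusted p = 0.0710). DESeq2 called Abcb1a on all 3 days (adjusted p = 2.73e-05, 8.61e-05 and 0.00107). Thbd, thrombomodulin, which endothelial and myeloid cells express, went the other way, from 0.176 RPKM in the control to between 0.370 and 3.15 RPKM after treatment. It was highest on PhIP/DSS day 1, where macrophage markers were also highest, and their part in it was not tested. The list therefore held genes on both sides of the control.

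S100g and Trpv6 were next set beside the homeobox genes that mark the distal end of the colon. Of that list 6 of 7 genes were listed, and they summed to 421 RPKM in the control, 186, 169.8 and 232 RPKM in DSS, and 88.7, 288 and 386 RPKM in PhIP/DSS. Hoxd13 was at 50.6 RPKM in the control, 21.5, 11.3 and 29.7 RPKM in DSS and 7.50, 51.6 and 70.8 RPKM in PhIP/DSS. Hoxd10 was at 9.66 RPKM in the control, 2.04, 1.35 and 8.64 RPKM in DSS and 1.14, 8.34 and 15.1 RPKM in PhIP/DSS. Like Trpv6, Hoxd13 and Hoxd10 were low on day 1 in both arms and low on DSS day 3. On day 3 of PhIP/DSS, Hoxd13 and Hoxd10 were near the control, whereas Trpv6 was 2.80-fold above it. Hoxb13, the most abundant of the list, was below the control in all 6 treated libraries, at 320 RPKM (320.3) in the control, 135.6, 133.9 and 159 RPKM in DSS and 58.1, 196 and 259 RPKM in PhIP/DSS. Hoxa13 was at 31.0 RPKM (30.99) in the control and 20.4 to 26.7 RPKM (26.65) after treatment.

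The correlation with Trpv6 over the 7 libraries was 0.884 for Hoxd13, 0.869 for Hoxd12, 0.920 for Hoxd11 and 0.902 for Hoxd10, against 0.612 for Hoxb13 and 0.393 for Hoxa13. With S100g it was 0.927, 0.917, 0.920, 0.918, 0.855 and 0.780 in the same order. Atp2b1 gave values from -0.093 to 0.495 with the same genes. Neutrophil markers were highest in DSS day 3 and PhIP/DSS day 1, the libraries with the lowest S100g and Trpv6. They were next highest on DSS day 7, where Trpv6 was above the control and S100g was 6.86-fold below it. The marker sums were alike on DSS day 1 and PhIP/DSS day 3 (34.2 and 31.1 RPKM). In those libraries Trpv6 was at 1.83 and 9.19 RPKM and S100g at 3.10 and 13.9 RPKM. The part of the sampled stretch of colon, and that of infiltrating cells, in the S100g and Trpv6 values was not tested.

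**Figure D4:**
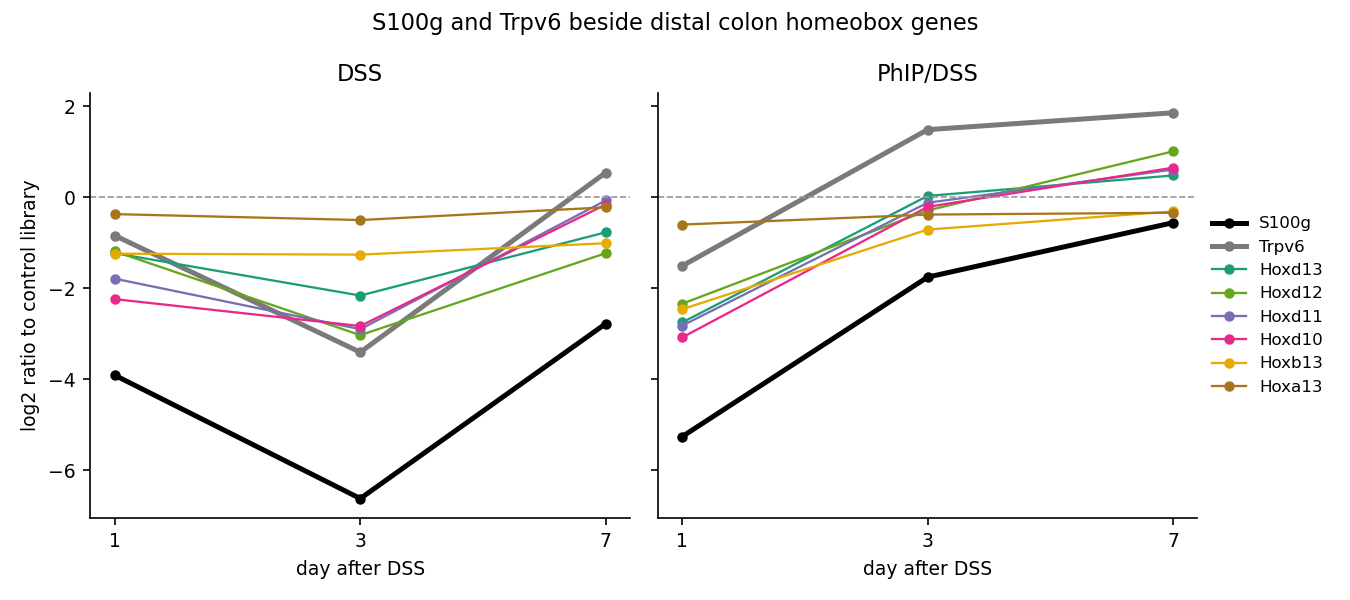
Log2 ratio to the control library (vertical axis) against day after DSS (horizontal axis, not to scale) for S100g, Trpv6 and 6 homeobox genes of the distal colon, DSS on the left and PhIP/DSS on the right, each point being 1 library. On day 3 Hoxd13 is at -2.16 in DSS and 0.03 in PhIP/DSS, and Trpv6 at -3.41 and 1.49.

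Among 9309 genes that reached 5 RPKM in a library, those most like Trpv6 by correlation of log2(RPKM + 1) over the 7 libraries were Hrh1 (0.970), Spint2 (0.968), Hfe (0.962), Ephb6 (0.947) and Polg (0.941). Ephb6 is the neighbour described above. Spint2, a serine protease inhibitor gene of epithelia, ranged only from 883 to 1091 RPKM, so a high correlation here does not mean a like size of difference. Those most like S100g were Mkrn2 (0.975), Timp4 (0.974), Prkch (0.972), Marveld2 (0.970) and Camsap2 (0.969). Timp4, a metalloproteinase inhibitor gene, was at 6.27 RPKM in the control, 0.405 RPKM (0.4045), 0.241 and 1.71 RPKM in DSS, and 0, 2.35 and 3.78 RPKM in PhIP/DSS. With a pseudocount of 0.1, 4 of the 5 genes stayed for Trpv6 and 2 of the 5 for S100g.

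Nearest to Vdr were Pwwp2a (0.998), Clec14a (0.995) and Limk2 (0.995), and nearest to Atp2b1 were Ppara (0.990), Ap1s3 (0.986) and Lhpp (0.984). Limk2, an actin-regulating kinase gene, was at 54.3 RPKM in the control and 25.3 to 37.1 RPKM after treatment. Ppara, a nuclear receptor of fatty acid metabolism, was at 5.55 RPKM in the control, 3.06, 2.11 and 1.67 RPKM in DSS and 2.50, 2.04 and 1.73 RPKM in PhIP/DSS, lower on each later day as Atp2b1 was.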

How the data were processed

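Poly(A) RNA was sequenced on an Illumina instrument, and the submitters' processing notes name mm10 and FastQC. No source used here names the aligner, the counting tool, the annotation or the strand setting. The deposited tables hold, per the file headers, a count of uniquely mapped reads per gene, the RPKM and the percent of the gene's length covered by reads. The RPKM that the authors deposited was the reads over gene length and library total, to within a relative difference of 7.8e-14. A gene absent from a table was entered as 0 reads. Symbols and positions came from RefSeq GRCm38.p6 (17983 genes matched, 53 not).

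Groups came from the sample labels; the day codes in the names of the tables differ from them. Ratios are of depth-scaled reads, with exact 95% conditional binomial intervals (scipy 1.17.1). Counts of 12061 genes entered 1 fit in edgeR 4.0.16, run in R 4.3.3 (TMM, quasi-likelihood test, Benjamini-Hochberg), with a level for the control and each day plus a PhIP term, which leaves 2 residual degrees of freedom. P-values rest on how the arm difference varied across days, not on replicate pools, and the control is assumed to vary like the rest. DESeq2 1.42.0, limma 3.58.1, other filters, scalings and omitted libraries were alternatives. The script was tested on simulated data.

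The members and lists were chosen with earlier results of these data known. Named were the members, the listed pathway genes called or at least 2-fold from the control in one direction in all 6 treated libraries, the gene with the highest mean level of a list with none, and the genes most correlated with a member. Other genes named (Rxra, Rxrb, Rxrg, the surface colonocyte markers, Retnlg, Mmp8, Dhcr7, Cyp27a1, Cyp27b1, Trpv5, S100a10, Atp2b2, Atp2b3, Atp2b4, Calb1, Gc, Lrp2, the neighbours and the homeobox genes) were chosen after their values were seen.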

Additional observations from a re-analysis of the deposited data

Results flagged for a closer look

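Trpv6 on day 3 lay on opposite sides of the control in the 2 arms. Its ratio to the control was 0.0943 in the DSS library (8 reads) and 2.80 in the PhIP/DSS library (228 reads), against 74 reads in the control. Each arm has 1 library on that day, so the difference was not tested. Trpv6 was also picked for being low after DSS and back earlier in PhIP/DSS, so this contrast is part of how it was chosen.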

How the results depend on the processing

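The number of genes called by edgeR was 0 in the 5 comparisons (days 1, 3 and 7 against control, day 7 against day 1, PhIP/DSS against DSS). DESeq2 gave 1258, 432, 482, 703 and 18. With limma on log2(RPKM + 0.1) the 3 control comparisons gave 6, 16 and 42, with log2(RPKM + 1) days 3 and 7 gave 2 each, and edgeR with no filter gave 6, 3 and 29. Leaving out 1 treated library gave ranges of 0 to 4280, 0 to 2271, 0 to 2010, 0 to 2986 and 0 to 324 in the same order, above 0 only without DSS day 1 or PhIP/DSS day 1. The remaining library of that day is then assumed to vary like the others. DESeq2 size factors in edgeR gave 0 in all 5. The fit compares the arms within days; with no day block it also gave 0 genes between the arms, with Vdr at 0.10 (0.06 with the block) and Atp2b1 at -0.03 in both. Of the fitted values of Vdr, Atp2b1 and the named pathway genes, 391 stayed on their side of the threshold, 77 passed it and 7 changed sign. Over the fits that left out 1 library, these were Atp2a3 on day 3 (-0.10 without PhIP/DSS day 3, highest 0.24), Cldn2 on day 1 (from -0.26 to 0.069 without PhIP/DSS day 1), Vdr on day 7 against day 1 (-0.23 without PhIP/DSS day 1, highest 0.97) and Vdr between the arms (-0.21 without DSS day 3, -0.08 without DSS day 7, -0.20 without PhIP/DSS day 3, -0.08 without PhIP/DSS day 7, highest 0.46). The cause was not tested. With TMM-scaled reads, 60 of 60 library ratios of the members stayed within their counting intervals. The ratio of Vdr on PhIP/DSS day 7 to the control moved from 0.4975 to 0.5016, across the 2-fold mark. Of the 5 genes most like S100g, 2 stayed with the pseudocount of 0.1, which was chosen after seeing the data. Low reads limit S100g on DSS day 3 (2 reads) and PhIP/DSS day 1 (5 reads), and Trpv6 on DSS day 3 (8 reads).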
